A study of Vitis vinifera with 27 samples.

Results

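Dormancy-associated protein-like 1 (VITVI10G00485), Dormancy-associated protein-like 3 (VITVI14G00142) and Dormancy-associated protein-like 4 (VITVI09G00050) are dormancy-associated genes of grapevine, taken here by identifier. They came into the study through a targeted search of the genome annotation, not through their expression. They are 3 of the 35134 genes in the count table, and all 3 were among the 22999 genes that passed the filter on low counts. The genes are called protein-like 1, protein-like 3 and protein-like 4 in what follows. Expression was measured by RNA-Seq in latent buds of Vitis vinifera cv. Merlot grafted on the rootstock Kober 5BB. Buds of node 2 (basal), node 5 (central) and node 10 (apical) of the cane were sampled at the phenological stages BBCH63 (anthesis), BBCH77 (cluster closure) and BBCH90 (harvest), which gave 9 groups of 3 biological replicates, each a pool of buds of one node. All vines were of this one cultivar, and the labels name no treatment. The stages were chosen to span the early events of flowering in the latent bud, from induction to initiation, and the nodes were chosen for their medium, low and high fruitfulness.

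The family is known as DRM1/ARP, for dormancy-associated and auxin-repressed proteins. DRM1 was described in axillary buds of pea, where its transcript is abundant in dormant buds and declines once buds are released by removal of the shoot tip, and an auxin-repressed member was described in strawberry. The transcripts are widely used as markers of dormant or growth-arrested buds, although the molecular role of the proteins is not established. Latent buds of grapevine stop growing during summer, held back at first by the rest of the shoot, and later enter dormancy.

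The libraries held 34531620 to 53307172 counts, and the 3 genes were far from the limit of detection, with 1201 counts or more in each of the 24 libraries tested. The study left out replicate 3 of node 10 at each stage, and groups were therefore compared over 24 libraries. The libraries left out stood apart over the 3000 most variable genes, where that of BBCH77 resembled BBCH90 node 2 (r = 0.85) and that of BBCH63 resembled no group closely (best r = 0.492, with BBCH77 node 2). The library labelled BBCH90 node 10 replicate 3 and that labelled BBCH63 node 2 replicate 2 had identical counts at all 35134 genes. As BBCH63 node 2 replicate 2, this library correlated at 0.883 with the others of that group. As BBCH90 node 10 replicate 3, it correlated at -0.718 with the others of that group, so that its counts resembled BBCH63 node 2. Leaving BBCH63 node 2 replicate 2 out changed no call of the 3 genes. Among the 24 libraries, BBCH77 node 2 replicate 3 correlated at 0.156 with the others of its group and at 0.876 with BBCH77 node 5. The node 10 libraries tested also resembled another group more, but their own group here held the library left out. Those of BBCH77 correlated at -0.131 and -0.14 with the rest of their group and at 0.797 and 0.842 with BBCH77 node 5. BBCH63 node 5 replicate 3 (0.86 and 0.867) and BBCH90 node 5 replicate 3 (0.8 and 0.807) were near a tie. Results that rest on BBCH77 node 2 replicate 3 are given with and without it. As a check of the tissue, the meristem genes VvVFL and VvTFL1A had counts in all 24 libraries, 80 to 649 and 2 to 483. VvTFL1A had only 2 to 10 counts per library at BBCH90, so that it is no check of the tissue at that stage.

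Protein-like 1 was highest at BBCH90 in buds of all 3 nodes, and its BBCH63 and BBCH77 levels lay closer together. Levels are given for each replicate as CPM, the count scaled to a common library size after TMM normalization. At BBCH63 protein-like 1 had 854, 992 and 1034 CPM at node 2, 1127, 1502 and 1278 CPM at node 5, and 1553 and 1287 CPM at node 10. At BBCH77 it had 1289, 1154 and 653 CPM at node 2, 642, 923 and 648 CPM at node 5, and 913 and 762 CPM at node 10. At BBCH90 it had 1611, 2198 and 2490 CPM at node 2, 2011, 2423 and 2912 CPM at node 5, and 2468 and 2349 CPM at node 10. Every BBCH90 library was above every library of both earlier stages, while BBCH63 and BBCH77 overlapped. The group means ran from 738 CPM (BBCH77 node 5) to 2449 CPM (BBCH90 node 5), a 3.32-fold range. In the order of group means, the only neighbours whose libraries did not overlap were BBCH90 node 2 and BBCH63 node 10.

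Protein-like 3 was lowest at BBCH77, where buds of the 3 nodes had nearly the same level. At BBCH63 it had 358, 389 and 377 CPM at node 2, 561, 808 and 623 CPM at node 5, and 745 and 794 CPM at node 10. At BBCH77 it had 212, 258 and 214 CPM at node 2, 217, 243 and 256 CPM at node 5, and 262 and 258 CPM at node 10. At BBCH90 it had 588, 718 and 864 CPM at node 2, 572, 804 and 1089 CPM at node 5, and 760 and 753 CPM at node 10. No BBCH77 library reached the lowest library of either other stage. The group means ran from 228 CPM (BBCH77 node 2) to 822 CPM (BBCH90 node 5), a 3.60-fold range, and the 5 highest groups overlapped each with the next. Further down, BBCH63 node 2, BBCH77 node 10 and BBCH77 node 5 were each separate from the group above, and BBCH77 node 2 overlapped with BBCH77 node 5.

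Protein-like 4 was low in buds of node 2 at BBCH63 and in 2 of 3 libraries of node 2 at BBCH77. At BBCH63 it had 48.8, 67.1 and 58.2 CPM at node 2, 147, 176 and 106 CPM at node 5, and 167 and 120 CPM at node 10. At BBCH77 it had 36.2, 31.9 and 95.7 CPM at node 2, 81.3, 74.7 and 79.1 CPM at node 5, and 96.5 and 130 CPM at node 10. At BBCH90 it had 116, 147 and 149 CPM at node 2, 99.0, 166 and 132 CPM at node 5, and 138 and 119 CPM at node 10. The 2 low groups were BBCH63 node 2 and BBCH77 node 2, in which 5 of 6 libraries were below every other library, and the exception was BBCH77 node 2 replicate 3, the library that stood apart. The group means ran from 54.6 CPM (BBCH77 node 2) to 143 CPM (BBCH63 node 10), a 2.63-fold range (4.22-fold without that library, where BBCH77 node 2 averaged 34.0 CPM), and the 6 highest groups overlapped each with the next.

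**Figure D1:**
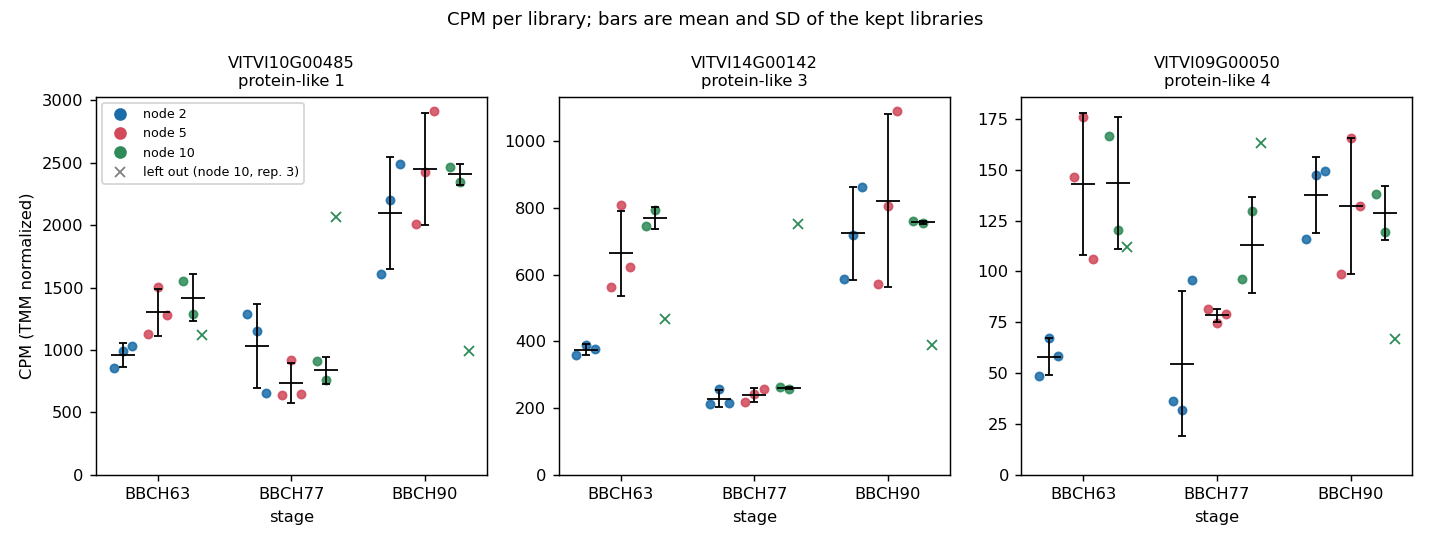
CPM (TMM normalized, linear axis from 0) of the 3 genes in each library by stage, with 1 panel per gene and colours for the nodes. Dots are the 24 libraries tested, black bars their mean and SD, and crosses the libraries left out. Protein-like 1 is highest at BBCH90, protein-like 3 is lowest at BBCH77, and protein-like 4 is low at node 2 at BBCH63 and in 2 of 3 libraries at BBCH77.

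The libraries left out had levels unlike their groups. Protein-like 1 had 1120, 2066 and 992 CPM in replicate 3 of node 10 at BBCH63, BBCH77 and BBCH90, and protein-like 3 had 467, 751 and 389 CPM. Protein-like 4 had 112, 163 and 67.0 CPM in these libraries. For all 3 genes the BBCH77 library was above both replicates tested of its group, and the BBCH63 and BBCH90 libraries were below theirs.

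The step of BBCH77 vs BBCH63 runs from anthesis to cluster closure. Protein-like 3 fell at least 2-fold in this step at nodes 5 and 10, and neither protein-like 1 nor protein-like 4 was called at any node. A gene was called where edgeR's quasi-likelihood test gave a Benjamini-Hochberg adjusted p under 0.05 over all genes tested and the change was at least 2-fold, and errors of log2 fold changes are standard errors. In these pools of whole buds, fewer cells of one type and less RNA per cell cannot be told apart. Protein-like 3 averaged 239 ± 20.1 CPM at BBCH77 and 664 ± 128 CPM at BBCH63 at node 5 (SD, n = 3 each), a 2.78-fold decrease (log2 fold change -1.47 ± 0.19, adjusted p = 5.26e-05). At node 10 it averaged 260 ± 2.96 CPM at BBCH77 and 770 ± 34.1 CPM at BBCH63 (SD, n = 2 each), a 2.96-fold decrease (log2 fold change -1.57 ± 0.23, adjusted p = 0.000314). The libraries of both stages were separate at both nodes. With all 27 libraries the node 10 value was -0.66 (adjusted p = 0.317), while the node 5 value stayed at -1.47 (adjusted p = 0.0232).

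At node 2 the same step was smaller for protein-like 3, which averaged 228 ± 26.2 CPM at BBCH77 and 375 ± 15.7 CPM at BBCH63 (SD, n = 3 each). The log2 fold change was -0.72 ± 0.19 (adjusted p = 0.0106), below the 2-fold limit although the libraries were separate. None of the 3 genes was called at node 2 by edgeR or by DESeq2, where 8.85% of all genes tested were called. There 1 of the 3 had an unadjusted p under 0.05, against 7967 of the 22999 genes tested. At node 5, 1 of the 3 was called against 8.61% of all genes, and at node 10, 1 of the 3 against 9.62%. Both calls were decreases, and 3.25% and 3.28% of all genes were called as decreases at these nodes.

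For protein-like 1, the log2 fold changes of BBCH77 vs BBCH63 were 0.10 ± 0.23 at node 2 (adjusted p = 0.786), -0.82 ± 0.23 at node 5 (adjusted p = 0.0156) and -0.76 ± 0.28 at node 10 (adjusted p = 0.064). The libraries of the stages were separate at nodes 5 and 10 and overlapped at node 2. The node 5 value passed the adjusted p but not the 2-fold limit, which it crossed without BBCH77 node 5 replicate 2 (-1.01, adjusted p = 0.0103). For protein-like 4, the log2 fold changes were -0.09 ± 0.31 at node 2 (adjusted p = 0.874), -0.87 ± 0.31 at node 5 (adjusted p = 0.0552) and -0.34 ± 0.38 at node 10 (adjusted p = 0.569). Without BBCH77 node 2 replicate 3 the node 2 value of protein-like 4 was -0.77 ± 0.23 (adjusted p = 0.0185). The node 5 value of protein-like 4 passed both limits without BBCH63 node 5 replicate 3 (-1.03, adjusted p = 0.0481).

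The step of BBCH90 vs BBCH77 runs from cluster closure to harvest. Protein-like 1 and protein-like 3 were called as increases at all 3 nodes, and protein-like 4 was called at node 2. At node 2, 3 of the 3 genes were called against 34.4% of all genes tested. At node 5, 2 of the 3 were called against 32.5% of all genes, and at node 10, 2 of the 3 against 33.9%. These shares of all genes are large, and a call in either direction is a common result in this step. The calls of the 3 genes were all increases, and 10.9%, 9.98% and 11% of all genes were called as increases at nodes 2, 5 and 10.

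Protein-like 3 averaged 723 ± 138 CPM at BBCH90 and 228 ± 26.2 CPM at BBCH77 at node 2 (SD, n = 3 each), a 3.17-fold increase (log2 fold change 1.67 ± 0.19, adjusted p = 6.56e-07). Which of the 3 genes had the highest value at node 2 turned on BBCH77 node 2 replicate 3, without which protein-like 3 had 1.62 and protein-like 4 had 2.02. The increase was 3.44-fold at node 5 (1.78 ± 0.19, adjusted p = 3.11e-07) and 2.91-fold at node 10 (1.54 ± 0.23, adjusted p = 2.12e-05). These changes ranked 945, 773 and 1127 among the log2 fold changes of the 22999 genes, counted from the highest, at nodes 2, 5 and 10. The libraries of the stages were separate at each node.

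Protein-like 1 averaged 2100 ± 447 CPM at BBCH90 and 1032 ± 335 CPM at BBCH77 at node 2 (SD, n = 3 each), a 2.03-fold increase (log2 fold change 1.02 ± 0.23, adjusted p = 0.000771). This value lay at the 2-fold limit. It was 0.98 with DESeq2 (adjusted p = 6.55e-05), and 0.78 without BBCH77 node 2 replicate 3 (adjusted p = 0.00338), 0.99 without BBCH90 node 2 replicate 2 and 0.88 without BBCH90 node 2 replicate 3. The increase was 3.32-fold at node 5 (1.73 ± 0.23, adjusted p = 4.38e-06) and 2.87-fold at node 10 (1.52 ± 0.28, adjusted p = 0.00018). With all 27 libraries the node 10 values were 0.63 for protein-like 1 (adjusted p = 0.395) and 0.58 for protein-like 3 (adjusted p = 0.415), and neither was called.

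Protein-like 4 averaged 138 ± 18.8 CPM at BBCH90 and 54.6 ± 35.7 CPM at BBCH77 at node 2 (SD, n = 3 each), a 2.52-fold increase (log2 fold change 1.33 ± 0.32, adjusted p = 0.00133). Without BBCH77 node 2 replicate 3 the increase was 4.05-fold (2.02 ± 0.24, adjusted p = 1.31e-06). At node 5 the value was 0.75 ± 0.31 (adjusted p = 0.0436), below 2-fold with separate libraries, and at node 10 it was 0.19 ± 0.38 (adjusted p = 0.692) with overlapping libraries. By BBCH90 the level of protein-like 4 was similar at the 3 nodes, 138, 132 and 129 CPM on average at nodes 2, 5 and 10.

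Meristem markers moved in the same step. VvVFL, the grapevine counterpart of LEAFY, fell at nodes 2 and 5 (log2 fold changes -1.06 and -1.85), with a value of -0.62 at node 10. VvTFL1A, whose Arabidopsis counterpart keeps shoot meristems indeterminate, fell at all 3 nodes, to 2 to 10 counts per library at BBCH90, against 55 to 285 counts at BBCH77. The part of these changes in the increase of the dormancy-associated genes was not tested.

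Over the whole interval, BBCH90 vs BBCH63, protein-like 1 and protein-like 4 were called as increases at node 2. None of the 3 genes was called at nodes 5 and 10, where protein-like 1 passed the adjusted p but not the 2-fold limit. Differences between the genes over this interval were not tested. At node 2, protein-like 1 rose 2.19-fold (log2 fold change 1.13 ± 0.23, adjusted p = 0.000318) and protein-like 4 rose 2.37-fold (1.24 ± 0.32, adjusted p = 0.00222). Protein-like 3 was 1.93-fold higher there (0.95 ± 0.19, adjusted p = 0.000244), just under the limit. The call of protein-like 1 was lost without BBCH90 node 2 replicate 3 (0.99), and protein-like 3 reached the limit without BBCH90 node 2 replicate 1 (1.08). Thus 2 of the 3 genes were called at node 2, against 34.3% of all genes tested in either direction and 12.7% as increases.

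At node 5 none of the 3 genes was called by edgeR or DESeq2 in BBCH90 vs BBCH63, against 32.8% of all genes, and at node 10 none, against 32%. An unadjusted p under 0.05 was common, with 15257 of the 22999 genes tested at node 5 and 14015 at node 10. Of the 3 genes, only protein-like 1 had one at these nodes. Its log2 fold changes were 0.91 ± 0.23 at node 5 (adjusted p = 0.00201) and 0.76 ± 0.28 at node 10 (adjusted p = 0.0268). It passed the 2-fold limit at node 5 without BBCH63 node 5 replicate 2 (1.03) and without BBCH90 node 5 replicate 1 (1.03). Protein-like 3 had values of 0.31 ± 0.19 at node 5 (adjusted p = 0.158) and -0.02 ± 0.23 at node 10 (adjusted p = 0.938). Protein-like 4 had -0.11 ± 0.31 at node 5 (adjusted p = 0.767) and -0.16 ± 0.38 at node 10 (adjusted p = 0.747), and for both genes the libraries of BBCH90 and BBCH63 overlapped at both nodes. The 3 kinds of stage comparison share libraries, so their values are not independent.

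**Figure D2:**
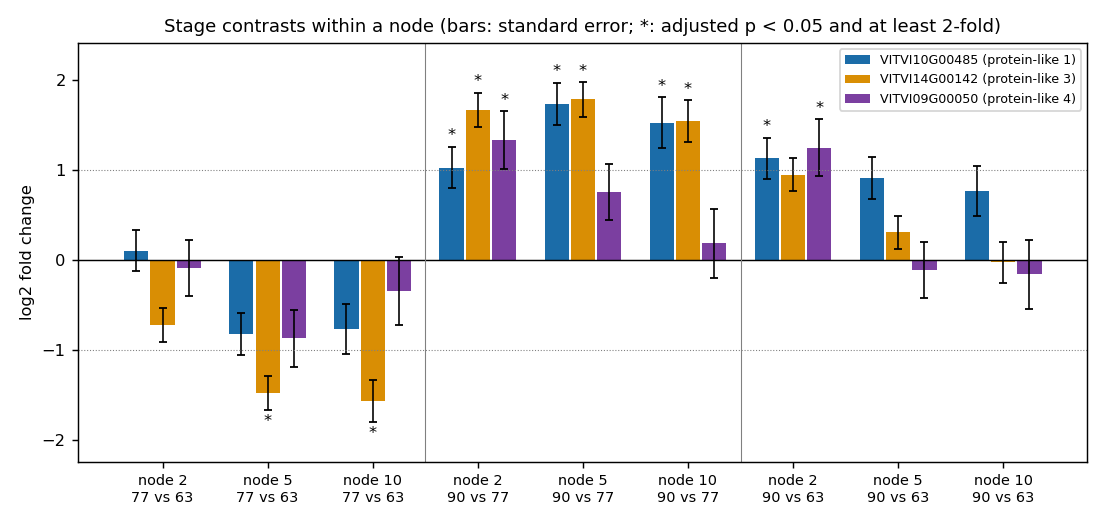
Log2 fold changes (vertical axis) of the 3 genes between stages within nodes 2, 5 and 10, for BBCH77 vs BBCH63, BBCH90 vs BBCH77 and BBCH90 vs BBCH63. Error bars are standard errors, dotted lines mark 2-fold, and asterisks mark called changes. Protein-like 3 has called decreases in the first step at nodes 5 and 10, and the increase of protein-like 4 in the second step is 1.33 at node 2 and 0.19 at node 10.

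To compare the course of the genes directly, the log2 ratio of the counts of a pair was taken within each library, which removes library scaling, and its change was tested over the 24 libraries by an exact two-sided permutation test with stages exchanged within nodes. Among the 6 tests (3 pairs by 2 steps, smallest possible p 0.000833), the clearest was that of protein-like 1 over protein-like 3 in BBCH77 vs BBCH63. This log2 ratio increased by 0.74 on average over the nodes (exact permutation p = 0.000833, the smallest possible, adjusted p = 0.005), by 0.77 at node 2, 0.63 at node 5 and 0.81 at node 10. Its values at nodes 2 and 10 lay between 1.61 and 2.60 and between 1.56 and 1.80 at BBCH77, against 1.25 to 1.45 and 0.70 to 1.06 at BBCH63. At node 5 it lay between 1.34 and 1.92 at BBCH77, against 0.89 to 1.04 at BBCH63, so that the stages were separate at each node. In BBCH90 vs BBCH77 the same ratio changed by -0.20 (permutation p = 0.172, adjusted p = 0.207), with node means of -0.59 (node 2), -0.00027 (node 5) and -0.01 (node 10).

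Protein-like 3 over protein-like 4 changed by -0.77 in BBCH77 vs BBCH63 (permutation p = 0.0108, adjusted p = 0.0325), with values of -0.46 at node 2, -0.62 at node 5 and -1.22 at node 10. In BBCH90 vs BBCH77 this ratio increased by 0.83 (permutation p = 0.0192, adjusted p = 0.0383), by 0.14 at node 2, 1.01 at node 5 and 1.34 at node 10. Neither call held in all fits that left out 1 library. With BBCH77 node 2 replicate 3 left out, the changes were -0.59 (adjusted p = 0.085) and 0.65 (adjusted p = 0.115). The first was also lost without BBCH63 node 2 replicate 1 (-0.74, adjusted p = 0.0617) or BBCH77 node 5 replicate 1 (-0.74, adjusted p = 0.05). The second was also lost without either of these (0.83 and 0.80), any one BBCH90 node 2 replicate (0.84, 0.85 and 0.81 for replicates 1, 2 and 3) or BBCH90 node 5 replicate 3 (0.76). Its adjusted p reached 0.115 at most.

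Protein-like 1 over protein-like 4 did not pass the test in either step. The change was -0.03 in BBCH77 vs BBCH63 (permutation p = 0.892, adjusted p = 0.892) and 0.63 in BBCH90 vs BBCH77 (permutation p = 0.119, adjusted p = 0.179). In the second step the values were -0.45 at node 2, 1.01 at node 5 and 1.33 at node 10, and the difference of this ratio between nodes was not tested.

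**Figure D3:**
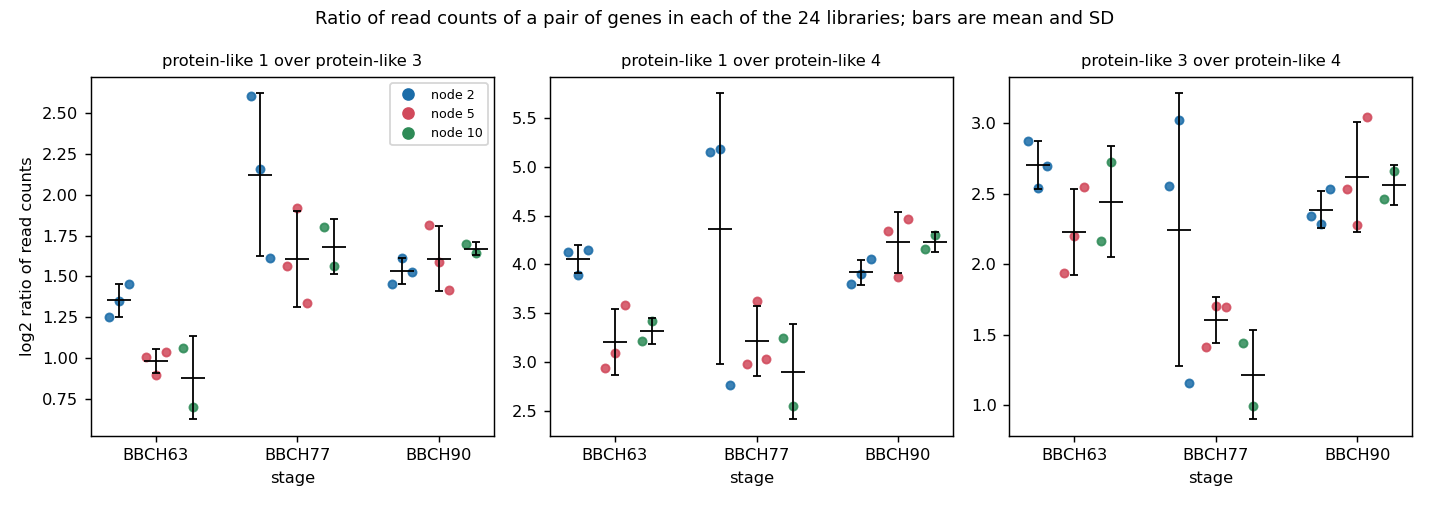
Log2 ratio of the read counts (vertical axis) of each pair of genes in the 24 libraries tested, by stage, with colours for the nodes and bars for mean and SD. Gene lengths were not taken into account, so that differences in height between panels carry no meaning. Protein-like 1 over protein-like 3 is higher at BBCH77 than at BBCH63 at each node.

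Whether a stage step differed between nodes was tested as an interaction in edgeR. None of the 3 genes was called in any of the 4 interactions, by edgeR or by DESeq2. For BBCH77 vs BBCH63, the background was 0.013% of all genes in node 5 minus node 2 and 0.0174% in node 10 minus node 2. Protein-like 1 and protein-like 3 had an unadjusted p under 0.05 in both, against 2377 and 2833 of the 22999 genes tested. For BBCH90 vs BBCH77 the background was 0.978% in node 5 minus node 2 (4217 genes at an unadjusted p under 0.05), where protein-like 1 had an unadjusted p under 0.05. It was 0% in node 10 minus node 2 (3695 genes at an unadjusted p under 0.05 and 410 called by DESeq2), where protein-like 4 had one.

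The largest differences were -0.92 ± 0.32 for protein-like 1 in the first step at node 5 minus node 2 (adjusted p = 0.305) and -1.14 ± 0.49 for protein-like 4 in the second step at node 10 minus node 2 (adjusted p = 0.267). These values turned on BBCH77 node 2 replicate 3. Without it, protein-like 1 had a difference of -1.16 ± 0.27 at node 5 (adjusted p = 0.0255) and -1.10 ± 0.30 at node 10 (adjusted p = 0.0406) in BBCH77 vs BBCH63. Protein-like 4 had -1.26 ± 0.30 at node 5 (adjusted p = 0.00892) and -1.83 ± 0.34 at node 10 (adjusted p = 0.00181) in BBCH90 vs BBCH77, and all 4 were called. Without it the interactions called in all genes were also more, 2.17% and 3.39% in the first step and 8.04% and 7.64% in the second step at nodes 5 and 10. Protein-like 3 was not called in any interaction with or without this library.

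Nodes were compared within each stage to describe the position along the cane. At BBCH63, protein-like 4 was higher at nodes 5 and 10 than at node 2, and protein-like 3 was higher at node 10 than at node 2. Protein-like 4 averaged 143 ± 35.0 CPM at node 5 and 58.0 ± 9.13 CPM at node 2 (SD, n = 3 each), a 2.46-fold difference (log2 fold change 1.30 ± 0.32, adjusted p = 0.0157). At node 10 it averaged 143 ± 32.6 CPM (SD, n = 2), 2.47-fold above node 2 (1.31 ± 0.34, adjusted p = 0.0243). Protein-like 3 averaged 770 ± 34.1 CPM at node 10 (SD, n = 2) and 375 ± 15.7 CPM at node 2 (SD, n = 3), a 2.05-fold difference (1.04 ± 0.20, adjusted p = 0.0061). In each of these comparisons the libraries were separate.

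Of the 3 genes, 1 was called in node 5 vs node 2 at BBCH63, against 4.82% of all genes. In node 10 vs node 2 it was 2 of the 3, against 4.61%. These shares count both directions, and 1.7% and 1.62% of all genes were called as higher than at node 2. Protein-like 3 had a log2 fold change of 0.82 ± 0.19 in node 5 vs node 2 (adjusted p = 0.0109). Protein-like 1 had 0.44 ± 0.23 in node 5 vs node 2 (adjusted p = 0.215) and 0.56 ± 0.25 in node 10 vs node 2 (adjusted p = 0.16), with separate libraries in both. In node 10 vs node 5 none of the 3 was called or had an unadjusted p under 0.05, with values between 0.00 and 0.21, against 0% of all genes by edgeR (2479 genes at an unadjusted p under 0.05 and 106 called by DESeq2).

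The calls of the 3 node differences at BBCH63 were not stable to the choice of libraries. With all 27 libraries, protein-like 4 had 1.30 in node 5 vs node 2 (adjusted p = 0.0799) and 1.20 in node 10 vs node 2 (adjusted p = 0.174), and protein-like 3 had 0.84 in node 10 vs node 2 (adjusted p = 0.331). The libraries compared in node 5 vs node 2 were the same in both fits, and all genes called there went from 1109 to 88. In node 5 vs node 2 the call of protein-like 4 was lost without BBCH63 node 2 replicate 1 (1.19, adjusted p = 0.0869) or BBCH63 node 5 replicate 2 (1.12, adjusted p = 0.0661). In node 10 vs node 2 it was lost without BBCH63 node 2 replicate 1 (1.20, adjusted p = 0.0929) or replicate 3 (1.31, adjusted p = 0.0563). The node 10 calls of protein-like 4 and protein-like 3 were also lost without either BBCH63 node 10 replicate, where 1 library was left in that group. Without replicate 1 or replicate 2 the values were 1.05 and 1.51 for protein-like 4, and 1.08 and 0.99 for protein-like 3. The direction was kept in each case.

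At BBCH77 none of the 3 genes was called between nodes by edgeR, where the background was 4.89% for node 5 vs node 2 and 1.6% for node 10 vs node 2. Protein-like 1 in the first and protein-like 4 in the second had an unadjusted p under 0.05, against 6829 and 5125 of the 22999 genes tested. Protein-like 4 averaged 113 ± 23.4 CPM at node 10 (SD, n = 2) and 54.6 ± 35.7 CPM at node 2 (SD, n = 3), with a log2 fold change of 1.05 ± 0.34 (adjusted p = 0.0938), and DESeq2 called it (1.04, adjusted p = 0.0422). Without BBCH77 node 2 replicate 3, protein-like 4 was 3.32-fold higher in node 10 vs node 2 (1.73 ± 0.25, adjusted p = 0.000112) and 2.31-fold higher in node 5 vs node 2 (1.21 ± 0.23, adjusted p = 0.000849). The shares of all genes called were then 10.5% and 12.1%. In node 10 vs node 5, none of the 3 genes was called or had an unadjusted p under 0.05, against 0% of all genes (785 at an unadjusted p under 0.05 and 1 called by DESeq2).

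Protein-like 1 at BBCH77 had log2 fold changes of -0.48 ± 0.23 in node 5 vs node 2 (adjusted p = 0.162) and -0.30 ± 0.26 in node 10 vs node 2 (adjusted p = 0.513). Without BBCH77 node 2 replicate 3 these were -0.72 ± 0.20 (adjusted p = 0.0111) and -0.54 ± 0.22 (adjusted p = 0.0827), both below the 2-fold limit. Protein-like 3 had values of 0.07 ± 0.19 in node 5 vs node 2 (adjusted p = 0.841) and 0.19 ± 0.21 in node 10 vs node 2 (adjusted p = 0.627). Its libraries overlapped in both comparisons.

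At BBCH90 none of the 3 genes was called between nodes by either tool or had an unadjusted p under 0.05. All log2 fold changes were between -0.12 and 0.22, with standard errors of 0.19 to 0.35, and the libraries overlapped in every comparison. The background by edgeR was 0% of all genes in each of the 3 comparisons. For node 5 vs node 2, 1812 genes had an unadjusted p under 0.05 and DESeq2 called 179. The numbers were 2185 and 131 for node 10 vs node 2, and 2088 and 152 for node 10 vs node 5.

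**Figure D4:**
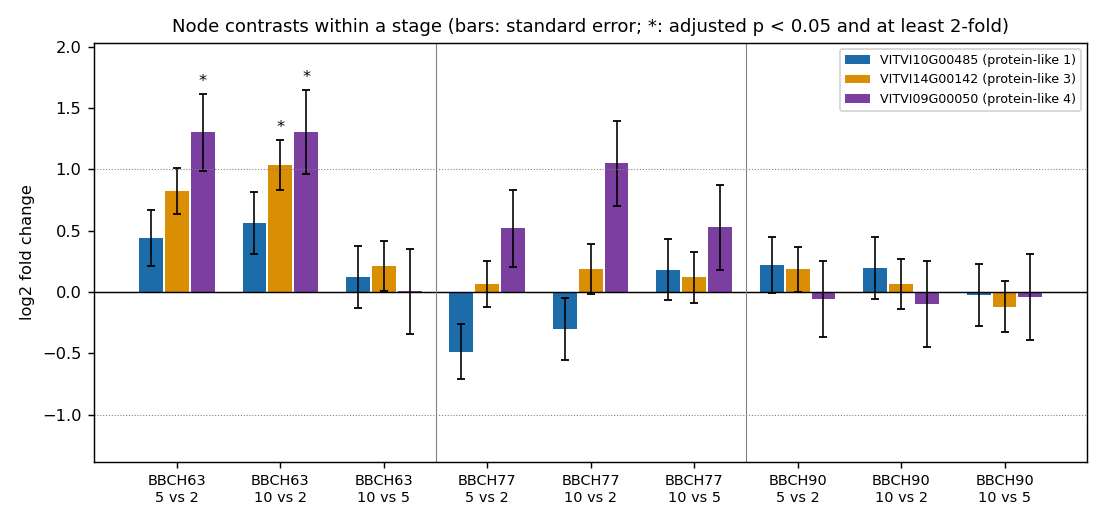
Log2 fold changes (vertical axis) of the 3 genes between nodes within each stage, for node 5 vs node 2, node 10 vs node 2 and node 10 vs node 5. Error bars are standard errors, dotted lines mark 2-fold, and asterisks mark called changes. The called values, 1.30 and 1.31 for protein-like 4 and 1.04 for protein-like 3, are all at BBCH63.

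The genes also differed in how much of their variation followed the stage. Over the 24 libraries, stage accounted for 79.8% of the variance of log2 CPM of protein-like 1, 82.5% for protein-like 3 and 29.7% for protein-like 4. Node accounted for 1.09% in protein-like 1, 5.98% in protein-like 3 and 27.4% in protein-like 4. The 9 groups together accounted for 87.9%, 94.2% and 76.8%, which left 12.1%, 5.81% and 23.2% within groups. Much of the spread of protein-like 4 within groups lay in BBCH77 node 2 replicate 3. Without this library the shares within groups were 7.79% for protein-like 1, 6.30% for protein-like 3 and 9.26% for protein-like 4. Stage then accounted for 79.2%, 81.0% and 31.7%, and node for 0.43%, 3.23% and 29.1%.

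Likeness between genes was measured as the root mean square difference of log2 CPM over the 24 libraries, each gene centred on its own mean. Protein-like 1 differed from protein-like 3 by 0.40, from protein-like 4 by 0.68, and protein-like 3 from protein-like 4 by 0.56. The SD of log2 CPM over these libraries was 0.68, 0.79 and 0.68 for protein-like 1, protein-like 3 and protein-like 4. This is about the distance of each from a gene that does not change. Seen from protein-like 3, protein-like 1 ranked 101 of the genes tested and protein-like 4 ranked 1163. Seen from protein-like 1, protein-like 3 ranked 1171 and protein-like 4 ranked 8549, and seen from protein-like 4 these ranks were 1958 for protein-like 3 and 6894 for protein-like 1. The members of the family were thus not each other's nearest genes.

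The genes nearest to protein-like 1 were VITVI03G00335 (0.17), VITVI02G00139 (0.19) and VITVI17G04085 (0.20). Those nearest to protein-like 3 were VITVI16G01915 (0.18), VITVI01G01971 (0.24) and VITVI10G01753 (0.24), and those nearest to protein-like 4 were VITVI16G01496 (0.24), VITVI07G02022 (0.28) and VITVI10G01072 (0.29). VITVI16G01915 had means of 89.0, 143 and 177 CPM at nodes 2, 5 and 10 at BBCH63, of 46.3, 62.2 and 59.6 CPM at BBCH77 and of 183, 205 and 210 CPM at BBCH90. VITVI03G00335 had 71.3, 87.1 and 90.6 CPM at BBCH63, 87.4, 61.4 and 64.4 CPM at BBCH77 and 143, 189 and 192 CPM at BBCH90. These genes were chosen for their likeness, so that their levels are a description.

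A list of 7 flowering genes and the auxin response repressor IAA9 was set beside the dormancy-associated genes, and all 8 passed the filter. The paper had named IAA9 for its increase over the stages at every node in these same data. Its increases, and its place in the counts of the list, are therefore a description. For the list, rose and fell stand for called changes. In BBCH77 vs BBCH63, IAA9 rose at all 3 nodes (log2 fold changes 1.32, 1.14 and 1.15 at nodes 2, 5 and 10), and VvCO, a counterpart of the photoperiod regulator CONSTANS, fell at node 5 (-1.02). VvFLC, a counterpart of the floral repressor FLC, fell at node 10 (-1.10). The medians of the list were -0.29, -0.39 and -0.42 at nodes 2, 5 and 10, against 0.02 over all genes at each node. Of all genes tested, 5.98%, 5.37% and 6.34% rose and 2.87%, 3.25% and 3.28% fell in this step, against 1 of the 8 that rose at each node and 0, 1 and 1 that fell. In BBCH90 vs BBCH77, 1, 2 and 1 of the 8 rose and 2, 3 and 2 fell at these nodes, with medians of -0.27, -0.28 and -0.26, against -0.05, -0.01 and -0.05 over all genes. Of all genes tested, 10.9%, 9.98% and 11% rose and 23.5%, 22.5% and 22.9% fell, so that the counts of the list were near the background.

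Only IAA9 of this list was called as rising in the second step at all nodes, as protein-like 1 and protein-like 3 were. Its log2 fold changes were 3.09, 3.48 and 3.30. VvCOL1 was called at node 5 (1.13), with 0.76 at node 2 (adjusted p = 8.4e-05) and 0.77 at node 10 (adjusted p = 0.000599). VvCO was below 2-fold, with 0.67 at node 2 (adjusted p = 0.0069), 0.56 at node 5 (adjusted p = 0.02) and 0.56 at node 10 (adjusted p = 0.0559). VvTFL1A fell at all nodes (-5.65, -4.21 and -4.80) and VvELF4 at nodes 5 and 10 (-1.16 and -1.29). In BBCH90 vs BBCH63, 1, 2 and 1 of the 8 rose and 2, 4 and 3 fell, with medians of -0.49, -0.91 and -0.59, against -0.02, 0.03 and -0.00 over all genes. Of all genes tested, 12.7%, 12% and 11.7% rose and 21.6%, 20.8% and 20.2% fell in this comparison. With 8 genes, these counts set nothing apart from the background. None of the 8 was called between nodes at any stage or in an interaction, by edgeR.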

How the data were processed

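RNA was extracted from latent buds of cv. Merlot, and stranded mRNA libraries (TruSeq) were sequenced on an Illumina instrument. The deposited values are raw read counts per gene, which the authors made by mapping to the PN40024.v4 genome and left without normalization. The labels name FastQC, HISAT2 and HTSeq, and their versions and the strand setting are not given in the sources used here. The extraction kit differs between the labels and the methods of the study. Groups were taken from the library titles. The labels do not say whether replicates came from separate vines, so that p-values measure the spread between these pools.

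The tests were run in edgeR 4.0.16 under R 4.3.3: TMM library sizes, a filterByExpr minimum of 10 counts with the 9 groups given, and a quasi-likelihood fit with 9 group means over 24 libraries, with Benjamini-Hochberg adjustment over all 22999 genes tested. Standard errors were obtained from the log2 fold change and the F statistic (absolute value over its square root). DESeq2 1.42.0 was an alternative, with other size factors, no filter on low counts, all 27 libraries, a replicate block, the 2 groups compared alone, and each library left out. Library totals in place of TMM, and variance shares and ranges without BBCH77 node 2 replicate 3, were chosen after seeing the data. Ratios used counts with 0.5 added, and log2 CPM a prior count of 2. Library totals were 34531620 to 53307172 counts (median 41261728.5 over the 24). Scripts were tested on simulated data. Figures were drawn with matplotlib 3.10.9.

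The members and lists were chosen with earlier results of these data known. The named genes were the 3 members, the 3 genes most like each, and 7 flowering genes with IAA9. Lists by product name, green-tissue markers, sequences and gene lengths were not analysed here, since the gene table at hand does not carry these identifiers. Levels of different genes were therefore not compared, and reads shared between members could not be checked. Replicate numbers were checked as pairs in 18 comparisons. Of 9 with 3 pairs, 1 had every correlation over 0.1 (range over all pairs -0.174 to 0.415), so numbers were not treated as pairs.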

Additional observations from a re-analysis of the deposited data

How the results depend on the processing

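No called change of the 3 genes turned in direction under any alternative. Dropping the filter on low counts changed 0 of 66 calls, fitting the 2 groups compared alone 0 of 54, and the ratio tests kept their calls with all 27 libraries or 2 counts added. With the replicate block 0 of 66 calls changed, and genes called in node 10 vs node 2 were 1639 at BBCH63 and 944 at BBCH77 (1060 and 367 without it). The 3 nearest genes stayed in all cases but 1 for protein-like 3 (2 of 3 kept with 27 libraries).

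All 27 libraries, 1 of which repeats another under a second label, changed 6 calls. Protein-like 3 (VITVI14G00142) had -0.66 in BBCH77 vs BBCH63 and 0.58 in BBCH90 vs BBCH77 at node 10, and 0.84 in node 10 vs node 2 at BBCH63. Protein-like 1 (VITVI10G00485) had 0.63 in BBCH90 vs BBCH77 at node 10. Protein-like 4 (VITVI09G00050) had 1.30 (node 5 vs node 2) and 1.20 (node 10 vs node 2) at BBCH63. Genes called then numbered 474, 590 and 1 in BBCH77 vs BBCH63 at nodes 2, 5 and 10 (2036, 1981 and 2212 over 24 libraries), 0 in BBCH90 vs BBCH77 at node 10 (7799), 691 in BBCH90 vs BBCH63 at node 10 (7350), and 88 and 4 in node 5 and node 10 vs node 2 at BBCH63 (1109 and 1060). At BBCH77 they were 0 for both (1124 and 367), as with the 2 groups compared alone, which gave 924 in BBCH77 vs BBCH63 at node 2.

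Protein-like 1 had 0.98 in BBCH90 vs BBCH77 at node 2 with DESeq2 and with its size factors in edgeR, under the 2-fold limit. DESeq2 called protein-like 4 in node 10 vs node 2 at BBCH77 (1.04), and 853 genes there. Its interactions had 149, 263, 755 and 410 genes (3, 4, 225 and 0 by edgeR). Library totals called protein-like 3 in node 5 vs node 2 at BBCH63 (1.01, with the median gene moved by 0.19 there), and moved the median gene by up to 0.29 (BBCH90 vs BBCH77, node 5). Interactions were 7 and 114 with it, where edgeR had 4 and 225.

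Leaving out each library changed 23 of 1584 calls of the genes. Log2 fold changes ran from -1.01 to -0.70 for protein-like 1 and from -1.03 to -0.69 for protein-like 4 in BBCH77 vs BBCH63 at node 5, and from 0.78 to 1.22 for protein-like 1 in BBCH90 vs BBCH77 at node 2. In BBCH90 vs BBCH63 they ran from 0.99 to 1.29 (protein-like 1, node 2), from 0.80 to 1.08 (protein-like 3, node 2) and from 0.77 to 1.03 (protein-like 1, node 5). At BBCH63 they ran from 1.12 to 1.47 (protein-like 4, node 5 vs node 2), from 0.99 to 1.08 (protein-like 3, node 10 vs node 2) and from 1.05 to 1.51 (protein-like 4, node 10 vs node 2). At BBCH77 protein-like 4 ran from 0.25 to 1.21 (node 5 vs node 2) and from 0.78 to 1.73 (node 10 vs node 2). Interactions ran from -1.16 to -0.73 and from -1.10 to -0.67 (protein-like 1, first step, nodes 5 and 10), and from -1.26 to -0.31 and from -1.83 to -0.87 (protein-like 4, second step). The ratio of protein-like 3 over protein-like 4 ran from -0.90 to -0.59 and from 0.65 to 0.96. The widest counts of genes called were 932 to 2524 in BBCH77 vs BBCH63 at node 10, 455 to 1424 and 103 to 1436 in node 5 and node 10 vs node 2 at BBCH63, and 195 to 2792 and 0 to 2411 at BBCH77. Interactions in BBCH90 vs BBCH77 had 0 to 1849 (node 5, and 0 with the replicate block) and 0 to 1758 genes (node 10). Causes were not tested.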
